A study of Homo sapiens with 24 samples.

Results

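ATF4 is the transcription factor of the integrated stress response. It is made when kinases that sense amino acid shortage, unfolded protein in the endoplasmic reticulum, heme shortage or viral RNA phosphorylate the initiation factor eIF2, and it then switches on genes for amino acid synthesis, amino acid import, tRNA charging and stress control. Its own amount is set largely by translation, so its mRNA is only part of its regulation. Many of its target promoters carry a composite element for ATF4 paired with a C/EBP protein.

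Described here are 35 genes of this response among the 18889 genes of the deposited table. They were chosen by symbol as known ATF4 targets and regulators, with earlier results of these data known, and all 35 were found. By role they fall into 12 stress regulators (ATF4, ATF3, DDIT3, CEBPB, CEBPG, TRIB3, CHAC1, SESN2, NUPR1, PPP1R15A, VLDLR and STC2), 10 enzymes of amino acid synthesis and one-carbon metabolism (ASNS, PHGDH, PSAT1, PSPH, SHMT2, MTHFD2, ALDH1L2, CTH, CBS and PCK2), 6 amino acid transporters (SLC3A2, SLC7A5, SLC38A2, SLC1A4, SLC1A5 and SLC7A1) and 7 cytosolic tRNA synthetases (AARS, GARS, WARS, SARS, EPRS, MARS and NARS).

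To model hyperglycemia, the study took 3 lines of ER+ human breast carcinoma, namely HCC1500, MDA-MB-175 and ZR-75-30, and measured them by RNA-Seq after 48 hours in medium with 5 mM glucose (low, LG, the control) or 25 mM glucose (high, HG). Each of the 6 groups had 4 cultures, 24 in all. The methods describe medium without serum in both conditions and cells conditioned in low glucose beforehand. In some experiments only, mannitol was added to the 5 mM control to match osmolarity. The labels of these 24 cultures do not mention mannitol, so whether the low glucose medium held it is not known here. Each line is established and unmodified, and the labels do not say whether the 4 cultures of a group were grown on separate occasions, so p-values measure the spread between these cultures, which may be technical.

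The recovered reads per culture ranged from 9140024 to 17998819, and the HCC1500 cultures did not overlap in depth between low (13190982 to 17998819) and high glucose (9423472 to 12140912). The detection floor was set at 3 reads, worth a value of 0.953 to 2.29. The luminal markers ESR1, GATA3, KRT8, KRT18, KRT19, EPCAM and FOXA1 were high in every culture (the lowest value was 255, for ESR1), whereas the mesenchymal marker VIM stayed at or below 16.8 and ZEB1 at or below 15.9; KRT5, KRT14, PTPRC, CD3E and PECAM1 are not listed. COL1A1 lay between 67.1 and 256, and the macrophage marker CD68 at or below 8.32 except in ZR-75-30 at high glucose (33.6 to 43.9), whose part in the results was not tested. TXNIP, which is known to be induced by glucose, was higher in every high glucose culture of each line than in every low glucose culture.

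One library stood apart. The HCC1500 high glucose replicate 3 (HG3) correlated at 0.944 with its own group on the log2 scale, and every other culture at 0.990 or above. Its deviation from the other 3 cultures of its group fell with transcript length (Spearman's rho across genes -0.69 over 12256 genes and -0.67 over 34 of the 35 genes described here; genes are not independent replicates). For 9 of the 34 (26.5%) the deviation exceeded 1 on the log2 scale, near the 23.9% of the 12256 genes. The HCC1500 counts of calls and the changes of the genes named are therefore given with all 8 cultures and without HG3.

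**Figure D1:**
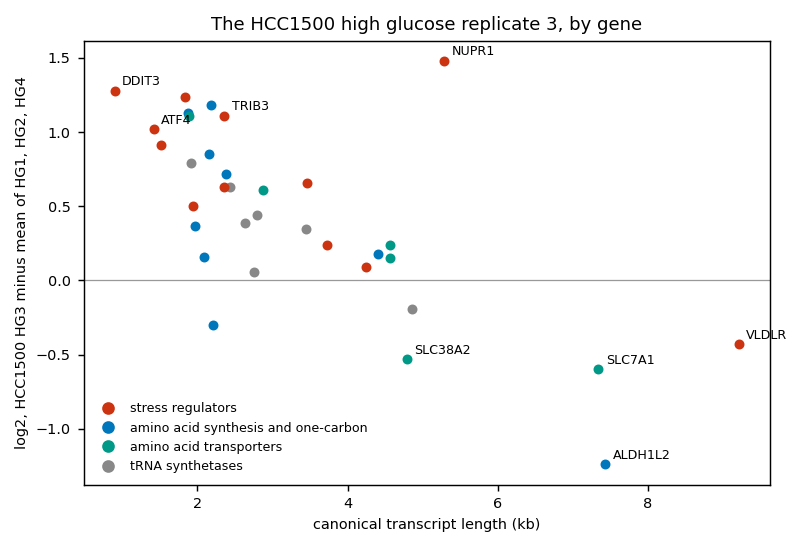
Log2 difference between HCC1500 HG3 and the mean of the other 3 HCC1500 high glucose cultures (vertical axis) against canonical transcript length in kb (horizontal axis), 1 point per gene, colored by role. Genes with short transcripts, such as DDIT3 (1.28) and ATF4 (1.02), were higher in HG3, and genes with long transcripts, such as ALDH1L2 (-1.24) and SLC7A1 (-0.60), were lower, with NUPR1 (1.48) apart from this trend at its annotated length of 5.29 kb.

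The composite element was searched as TGATGNAA on both strands of the RefSeq promoters (build GRCh38.p14, 250 bases before to 50 after each start). Of the 31 genes with a promoter in the reference, 12 (38.7%) carried it in at least 1 of their promoters, against 4.46% of all 27305 genes. The other motif searched, the cAMP response element TGACGTCA, was in 1 gene (3.23%, PPP1R15A) against 2.25% of all genes. No gene of the 31 carried both. The windows of the 6 genes with the largest called change that have the element wholly upstream of the start are printed 5′ to 3′ on the strand of the gene, to set it beside the genes' values. Capitals mark the element, which reads as its reverse complement where it lies on the other strand. A match describes these letters only.
ATF3 (chr1:212565186-212565253, + strand): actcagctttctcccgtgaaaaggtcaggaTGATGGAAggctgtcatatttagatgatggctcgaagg
CHAC1 (chr15:40953232-40953299, + strand): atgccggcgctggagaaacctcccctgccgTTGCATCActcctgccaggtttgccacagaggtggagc
ASNS (chr7:97872439-97872506, - strand): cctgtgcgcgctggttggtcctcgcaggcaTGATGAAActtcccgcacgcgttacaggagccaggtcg
SLC1A5 (chr19:46784874-46784941, - strand): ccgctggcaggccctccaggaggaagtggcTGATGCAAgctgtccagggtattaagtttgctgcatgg
CEBPG (chr19:33374041-33374108, + strand): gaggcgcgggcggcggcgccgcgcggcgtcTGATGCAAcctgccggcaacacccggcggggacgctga
AARS (chr16:70289656-70289723, - strand): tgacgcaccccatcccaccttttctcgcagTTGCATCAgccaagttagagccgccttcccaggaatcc

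The first question was how many of the 35 genes responded to glucose in each line. A gene was called at a limma adjusted p under 0.05 over all genes tested, and changes are high minus low glucose on the log2(value + 1) scale. In bulk RNA, fewer cells of a kind and less RNA per cell cannot be told apart. In MDA-MB-175 24 of 35 genes were higher at high glucose and 2 were lower, whereas 11.9% of all genes tested in this line were called higher and 13.7% lower. The median change of the 35 genes was 0.31, against -0.02 for all genes. The cultures of the 2 conditions did not overlap for 26 of the 35, against 26.6% of all genes.

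ZR-75-30 showed a split. Of 34 genes tested, 13 were higher and 12 were lower, with 23.4% of all genes called higher and 22.7% lower. The median change was -0.01, against 0.01 for all genes, and the conditions did not overlap for 22 of the 34 (42.0% of all genes). By role, 7 of 12 stress regulators were higher and 2 lower (median 0.29), whereas 5 of 9 synthesis enzymes were lower and 2 higher (median -0.24) and 4 of 7 tRNA synthetases were lower and 2 higher (median -0.22). The rises include ALDH1L2, which was under the floor of 3 reads in every low glucose culture and entered the test through its high glucose cultures.

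In HCC1500 10 of 34 tested genes were higher and 1 was lower, with 7.46% of all genes called higher and 13.0% lower, and the conditions did not overlap for 22 of the 34 (32.4% of all genes). The median change was 0.32, against -0.06 for all genes. Without HG3 22 of 34 were higher and 6 lower, with 20.9% of all genes called higher and 37.7% lower, the median was 0.23 against -0.12, and the conditions did not overlap for 30 of the 34 (58.1% of all genes). The call appeared without HG3 for 17 genes (CEBPG, TRIB3, SESN2, VLDLR, PHGDH, PSAT1, PSPH, SHMT2, PCK2, SLC1A5, SLC7A1, AARS, GARS, WARS, SARS, EPRS and NARS), and no gene lost its call. With HG3 kept, leaving out LG1, LG2 or LG4 reduced the rises to 6, and those of all genes from 1221 to 759, 738 and 765. With all cultures edgeR and DESeq2 gave 16 and 18 rises, and 1709 and 2323 over all genes. Of the 17, SHMT2 alone changed its sign, from 0.08 to -0.13; MARS, called neither way, went from 0.09 to -0.02.

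By the composite element, 10 of the 12 genes that carry it were higher and 1 was lower in MDA-MB-175 (11.9% and 13.7% of all genes), and 3 were higher and 5 lower in ZR-75-30 (23.4% and 22.7%). The 19 matched genes without it gave 12 higher and 1 lower in MDA-MB-175, and 7 higher and 6 lower among 18 tested in ZR-75-30. In HCC1500 4 of the 12 with the element were higher and 1 lower (7.46% and 13.0% of all genes), and without HG3 10 were higher and 1 lower (20.9% and 37.7%). Among 18 tested without the element, 5 were higher and none lower in HCC1500, and 11 were higher and 3 lower without HG3.

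**Figure D2:**
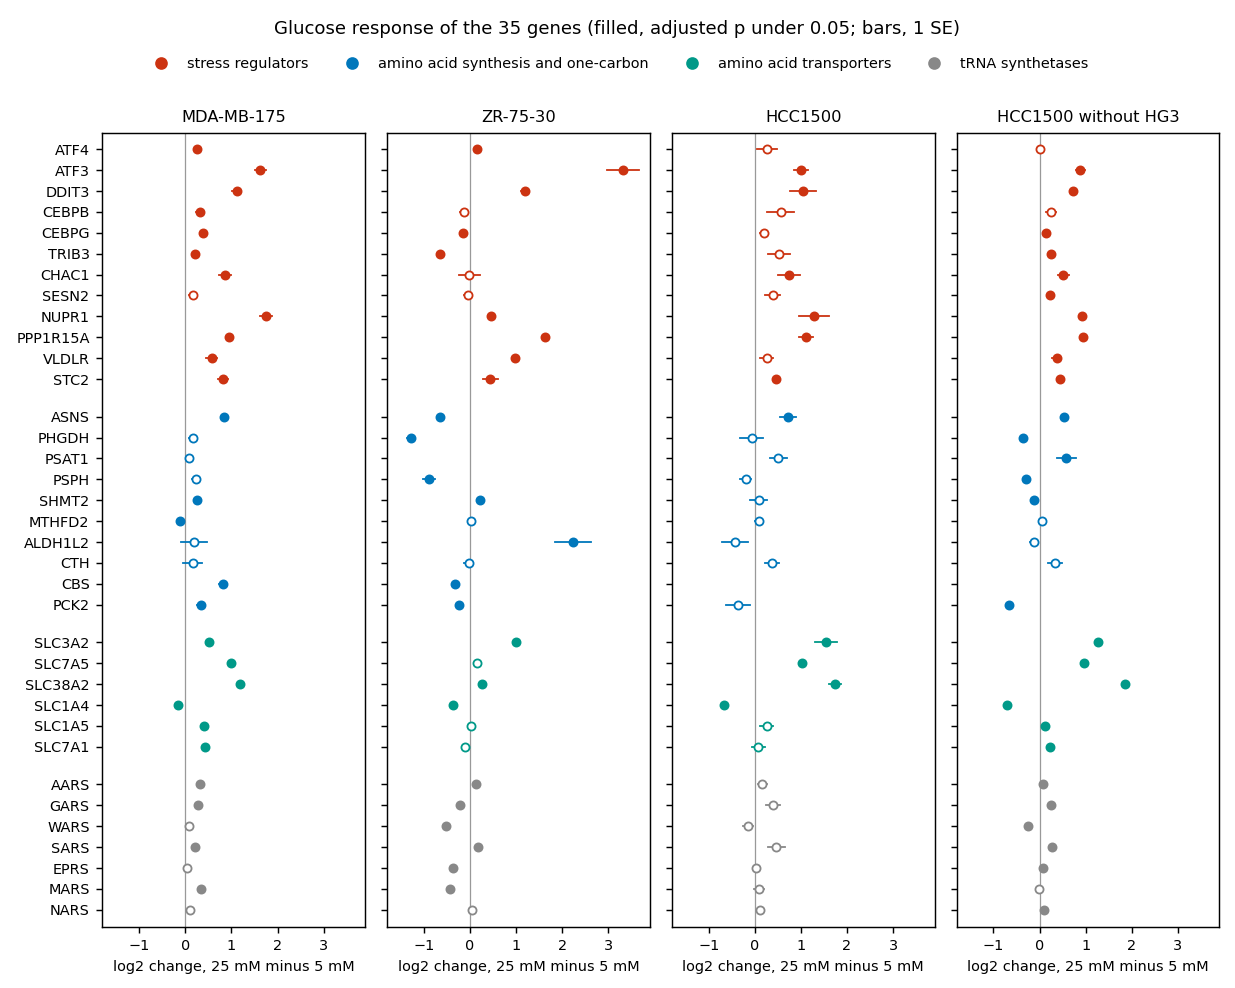
Log2 change from 5 mM to 25 mM glucose (horizontal axis) of each of the 35 genes (vertical axis), by line, with HCC1500 also drawn without HG3. Points are limma estimates from 4 cultures per group (3 at high glucose in the last panel), bars are 1 SE, filled points have an adjusted p under 0.05, and colors give the role. Nearly all points of MDA-MB-175 lie right of 0, those of ZR-75-30 lie on both sides, and PSAT1 in ZR-75-30 and CBS in HCC1500 were not tested.

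Across lines, 7 genes were higher at high glucose in all 3 (ATF3, DDIT3, NUPR1, PPP1R15A, STC2, SLC3A2 and SLC38A2) and 1 was lower in all 3 (SLC1A4), out of 33 tested in every line. Over all genes tested in every line, 1.81% were higher in all 3 and 3.32% lower. Another 7 genes (CEBPG, TRIB3, ASNS, CBS, PCK2, GARS and MARS) were higher in MDA-MB-175 and lower in ZR-75-30, out of 34 tested in both, against 0.933% of all genes. None of the 34 was called the other way round, a direction for which the share of all genes was not computed, so nothing is read from it. The count higher in all 3 lines ran from 5 to 10 when 1 culture was left out. With median-of-ratios scaling or edgeR 9 genes were opposite, PHGDH and PSPH being added. Under these other settings the shares of all genes were not computed. SESN2, PSAT1, CTH and NARS were called in no line with all cultures, and CTH alone remained so without HG3.

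The size of the response was tested against line in a fit of all 24 cultures. It differed for 22 of the 35 genes, against 29.3% of all genes, and without HG3 for 30 of the 35, against 48.6% of all genes. PSAT1 in ZR-75-30 and CBS in HCC1500 were at or under the floor of 3 reads, so no response could be measured there, and of the 33 genes tested in every line it differed for 20 (28 without HG3). Both counts include ALDH1L2, which was under the floor in every ZR-75-30 low glucose culture, so the size of its response there is uncertain. SLC38A2 (adjusted p = 1.2e-08), ASNS (adjusted p = 2.0e-07) and SLC7A5 (adjusted p = 3.5e-07) had the smallest p-values with all cultures, and SLC38A2 (adjusted p = 1.8e-17), ASNS (adjusted p = 1.2e-13) and TRIB3 (adjusted p = 7.6e-11) without HG3. SLC38A2 is an importer of neutral amino acids, ASNS the enzyme that makes asparagine and SLC7A5 the light chain of the large neutral amino acid exchanger.

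Among the stress regulators, ATF4 itself (chr22:39915700-39918688 in GRCh37) moved little. ATF4 values in MDA-MB-175 were 2767, 2535, 2677 and 2480 at low glucose and 3282, 3024, 2919 and 3178 at high glucose. In ZR-75-30 ATF4 was at 3163, 3278, 3152 and 3088 at low glucose and 3568, 3525, 3558 and 3323 at high glucose. The HCC1500 cultures had ATF4 at 1333, 1422, 1415 and 1400 at low glucose and 1398, 1436, 2857 and 1392 at high glucose. The conditions did not overlap in MDA-MB-175 (log2 change 0.25 ± 0.05 (SE), adjusted p = 9.5e-04) or ZR-75-30 (log2 change 0.14 ± 0.04 (SE), adjusted p = 0.00347). In HCC1500 only HG3 lay clearly above the low glucose cultures (log2 change 0.27 ± 0.22 (SE), adjusted p = 0.438), and without it the change was 0.02 ± 0.03, adjusted p = 0.663. ATF4 has 4 processed copies named after it in the annotation, between which reads could be split.

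ATF3, a stress-induced repressor of the same family (chr1:212738676-212794119), gave the largest change of the 35 genes in ZR-75-30. ATF3 values in MDA-MB-175 were 28.5, 26.1, 22.2 and 25.4 at low glucose and 80.3, 80.1, 79.6 and 84.1 at high glucose. ZR-75-30 cultures had ATF3 at 6.09, 5.69, 2.85 and 0.763 at low glucose and 41.7, 43.2, 42.9 and 37.7 at high glucose. HCC1500 cultures had ATF3 at 41.8, 43.8, 50.2 and 43.9 at low glucose and 84.4, 80.1, 118 and 85.9 at high glucose. The conditions did not overlap in any line, with high glucose the higher each time, and 1 ZR-75-30 low glucose culture held a single read. The rise was 1.63 ± 0.12 (SE) in MDA-MB-175 (adjusted p = 3.5e-08), 3.32 ± 0.34 in ZR-75-30 (adjusted p = 2.4e-07) and 1.0 ± 0.15 in HCC1500 (adjusted p = 0.00208, and 0.88 ± 0.10, adjusted p = 7.3e-07 without HG3). The rises differed between lines (adjusted p = 1.9e-04).

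DDIT3 encodes CHOP, a regulator linked to stress-induced cell death (chr12:57910371-57915520). DDIT3 values in MDA-MB-175 were 51.4, 44.2, 47.3 and 50.9 at low glucose and 117, 100.5, 97.6 and 107 at high glucose. ZR-75-30 cultures had DDIT3 at 83.1, 75.1, 94.6 and 77.1 at low glucose and 195, 186, 186 and 185 at high glucose. HCC1500 cultures had DDIT3 at 199, 209.6, 215 and 209 at low glucose and 339.8, 352, 838 and 339 at high glucose. High glucose was above low glucose in every culture, and HG3 was far above the rest of its group. The rise was 1.11 ± 0.10, adjusted p = 4.7e-07 in MDA-MB-175, 1.19 ± 0.08, adjusted p = 1.5e-09 in ZR-75-30 and 1.04 ± 0.28, adjusted p = 0.0289 in HCC1500, and a difference between lines was not detected (adjusted p = 0.914). Without HG3 the HCC1500 rise was 0.72 ± 0.05, adjusted p = 4.7e-10 and the lines differed (adjusted p = 0.00127). With HG3 kept, leaving out LG1, LG2, LG3 or LG4 ended the HCC1500 call (1.02 to 1.06). DDIT3 and MARS share 355 exon bases on opposite strands, and whether these libraries were counted by strand is not given in the sources used here.

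NUPR1, a small stress-response chromatin protein (chr16:28544029-28550329), rose in all lines. NUPR1 values in MDA-MB-175 were 63.4, 42.2, 47.8 and 37.1 at low glucose and 168, 156, 147 and 166 at high glucose. ZR-75-30 cultures had NUPR1 at 1666, 1583, 1589 and 1528 at low glucose and 2110, 2259, 2311 and 2021 at high glucose. HCC1500 cultures had NUPR1 at 924, 1061, 947 and 1082 at low glucose and 1837, 1880, 5266 and 1940 at high glucose. No conditions overlapped, and the low glucose level of MDA-MB-175 was far below that of the other lines. The rise was 1.75 ± 0.13, adjusted p = 6.4e-08 in MDA-MB-175, 0.45 ± 0.04, adjusted p = 1.2e-07 in ZR-75-30 and 1.28 ± 0.32, adjusted p = 0.0221 in HCC1500, with 0.91 ± 0.05, adjusted p = 9.9e-12 without HG3. It differed between lines (adjusted p = 0.00853). With HG3 kept, the HCC1500 call ended without LG1, LG2, LG3 or LG4 (1.24 to 1.32). A lncRNA on the same strand shares 909 exon bases with NUPR1.

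PPP1R15A encodes GADD34, the phosphatase subunit that reverses eIF2 phosphorylation (chr19:49375469-49379316). PPP1R15A values in MDA-MB-175 were 156, 147, 149 and 134 at low glucose and 294, 273, 286 and 286 at high glucose. ZR-75-30 cultures had PPP1R15A at 129, 141, 135 and 131 at low glucose and 386, 436, 429 and 406 at high glucose. HCC1500 cultures had PPP1R15A at 260, 294, 281 and 267 at low glucose and 524, 527, 826 and 549 at high glucose. Every high glucose culture was above every low glucose culture of its line. The rise was 0.95 ± 0.06, adjusted p = 1.6e-08 in MDA-MB-175, 1.62 ± 0.06, adjusted p = 2.8e-13 in ZR-75-30 and 1.11 ± 0.15, adjusted p = 0.0014 in HCC1500 (0.95 ± 0.05, adjusted p = 7.6e-12 without HG3), and it differed between lines (adjusted p = 0.00241).

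STC2, a secreted glycoprotein of calcium and phosphate control (chr5:172741726-172755450), was the remaining stress gene to rise in every line. STC2 values in MDA-MB-175 were 56.2, 52.9, 40.4 and 51.9 at low glucose and 92.8, 86.9, 89.8 and 85.2 at high glucose. ZR-75-30 cultures had STC2 at 44.3, 39.8, 31.3 and 40.5 at low glucose and 53.1, 42.5, 50.6 and 67.8 at high glucose. HCC1500 cultures had STC2 at 751, 806, 758 and 815 at low glucose and 1024, 1087, 1129 and 1069 at high glucose. The conditions overlapped in ZR-75-30 and not in the other lines. The rise was 0.81 ± 0.11, adjusted p = 4.5e-05 in MDA-MB-175, 0.44 ± 0.16, adjusted p = 0.027 in ZR-75-30 and 0.46 ± 0.07, adjusted p = 0.00272 in HCC1500 (0.44 ± 0.04, adjusted p = 1.0e-08 without HG3). Leaving out LG3 or HG4 of ZR-75-30 ended its call there (0.34 and 0.32), and a difference between lines was not detected (adjusted p = 0.146).

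**Figure D3:**
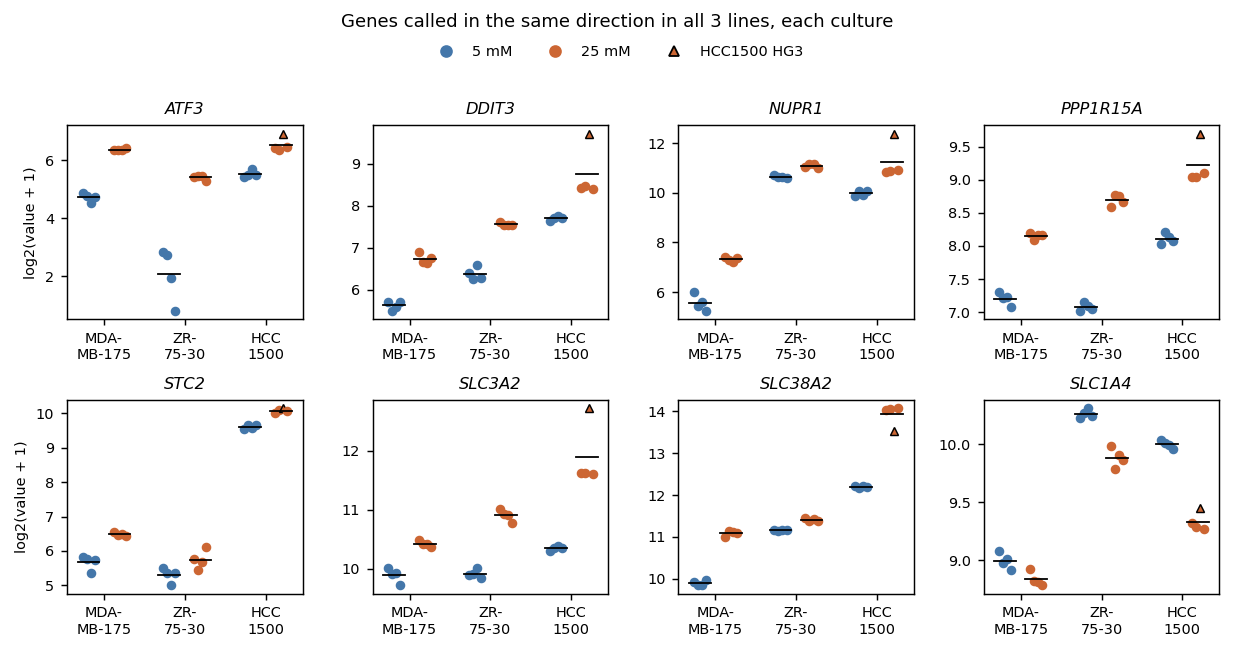
Log2(value + 1) of each culture (vertical axis) for the 8 genes called in the same direction in all 3 lines, by line and condition; blue is 5 mM, orange 25 mM, bars are group means, and the outlined triangle is HCC1500 HG3. ATF3, DDIT3, NUPR1, PPP1R15A, SLC3A2 and SLC38A2 separate completely in each line, STC2 overlaps in ZR-75-30, and SLC1A4 is the gene that falls.

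TRIB3, a pseudokinase that restrains ATF4 and CHOP (chr20:343479-378203), went in opposite directions. TRIB3 values in MDA-MB-175 were 2019, 1864, 1862 and 1707 at low glucose and 2264, 2127, 2093 and 2106 at high glucose. ZR-75-30 cultures had TRIB3 at 2010, 1921, 1998 and 2051 at low glucose and 1358, 1240, 1301 and 1173 at high glucose. HCC1500 cultures had TRIB3 at 406, 449, 433 and 437 at low glucose and 499, 520.4, 1105 and 512 at high glucose. High glucose was above low glucose without overlap in MDA-MB-175 and HCC1500 and below it in ZR-75-30. The change was 0.21 ± 0.05, adjusted p = 0.00488 in MDA-MB-175 and -0.66 ± 0.04, adjusted p = 7.4e-10 in ZR-75-30. In HCC1500 it was 0.52 ± 0.24, adjusted p = 0.168, and 0.24 ± 0.04, adjusted p = 6.1e-05 without HG3. The lines differed (adjusted p = 7.5e-04).

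CEBPG, a C/EBP protein that pairs with ATF4 (chr19:33864591-33873592), changed in opposite directions in 2 of the lines. CEBPG values in MDA-MB-175 were 334, 329, 314 and 333 at low glucose and 411, 432, 438 and 426 at high glucose. ZR-75-30 cultures had CEBPG at 531, 525, 505 and 514 at low glucose and 437, 452, 476 and 488 at high glucose. HCC1500 cultures had CEBPG at 806, 742, 782 and 794 at low glucose and 841, 882, 1017 and 861 at high glucose. The conditions did not overlap in any line, with high glucose lower in ZR-75-30. CEBPG rose in MDA-MB-175 (0.38 ± 0.05, adjusted p = 2.0e-05) and fell in ZR-75-30 (-0.16 ± 0.05, adjusted p = 0.00727). In HCC1500 its change was 0.20 ± 0.08, adjusted p = 0.128, and 0.14 ± 0.04, adjusted p = 0.00228 without HG3, and the lines differed (adjusted p = 4.1e-05).

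CHAC1, which degrades glutathione (chr15:41245160-41248710), was called in 2 of the 3 lines. CHAC1 values in MDA-MB-175 were 44.5, 40.2, 35.3 and 29 at low glucose and 69.9, 76.1, 61.7 and 63.6 at high glucose. ZR-75-30 cultures had CHAC1 at 15, 17.1, 17.7 and 23.7 at low glucose and 13.5, 25, 20.4 and 14.4 at high glucose. HCC1500 cultures had CHAC1 at 39.9, 48, 43 and 39.2 at low glucose and 54.9, 58.7, 115 and 70.2 at high glucose. ZR-75-30 was the line where the conditions overlapped. The change was 0.86 ± 0.14, adjusted p = 2.0e-04 in MDA-MB-175, -0.02 ± 0.23, adjusted p = 0.946 in ZR-75-30 and 0.74 ± 0.23, adjusted p = 0.0499 in HCC1500 (0.51 ± 0.12, adjusted p = 0.00137 without HG3), with adjusted p = 0.0485 for a difference between lines. The HCC1500 call with all cultures ended with a pseudocount of 5, with no filter, with the replicate block (0.74), or when LG1, LG2, LG3, LG4, HG2 or HG4 was left out (0.70 to 0.83).

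The other 3 stress regulators were VLDLR, a lipoprotein receptor, CEBPB, a C/EBP protein, and SESN2, a leucine sensor upstream of mTORC1. VLDLR rose in MDA-MB-175 (0.57 ± 0.12, adjusted p = 0.00177) and most in ZR-75-30 (0.98 ± 0.06, adjusted p = 2.1e-10), where its values went from 174 to 206 at low to 362 to 383 at high glucose. In HCC1500 VLDLR was 0.26 ± 0.14, adjusted p = 0.227, and 0.37 ± 0.09, adjusted p = 0.00184 without HG3. CEBPB rose in MDA-MB-175 (0.31 ± 0.08, adjusted p = 0.00913) and was -0.13 ± 0.09, adjusted p = 0.249 in ZR-75-30. In HCC1500 CEBPB was 0.56 ± 0.29, adjusted p = 0.209 (0.25 ± 0.11, adjusted p = 0.0502 without HG3), called there with DESeq2 alone. SESN2 was 0.16 ± 0.08, adjusted p = 0.199 in MDA-MB-175 and -0.05 ± 0.08, adjusted p = 0.68 in ZR-75-30, and in HCC1500 it was 0.39 ± 0.16, adjusted p = 0.118, rising once HG3 was left out (0.22 ± 0.04, adjusted p = 3.0e-04). By count, 11 of 12 stress regulators were higher in MDA-MB-175 (median 0.69), 7 in ZR-75-30 and 6 in HCC1500 (10 without HG3). Of all genes, 11.9%, 23.4% and 7.46% (20.9% without HG3) were called higher in these lines.

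Among the enzymes of amino acid synthesis, ASNS, which makes asparagine from aspartate and glutamine (chr7:97480989-97501854), rose in MDA-MB-175 and HCC1500 and fell in ZR-75-30. ASNS values in MDA-MB-175 were 352, 354, 350.2 and 383 at low glucose and 667, 629, 624 and 633 at high glucose. ZR-75-30 cultures had ASNS at 318, 297, 297 and 311 at low glucose and 181, 214, 196 and 181 at high glucose. HCC1500 cultures had ASNS at 630.5, 619.7, 674 and 602 at low glucose and 875, 948, 1507 and 929 at high glucose. No conditions overlapped, and high glucose was above low glucose in MDA-MB-175 and HCC1500 and below it in ZR-75-30. The change was 0.83 ± 0.05, adjusted p = 4.0e-09 in MDA-MB-175, a 1.77-fold rise, and -0.66 ± 0.06, adjusted p = 7.9e-08 in ZR-75-30, where the level fell to 0.631 of that at low glucose. In HCC1500 it was 0.72 ± 0.17, adjusted p = 0.0166 (0.54 ± 0.04, adjusted p = 2.7e-09 without HG3), and leaving out LG1, LG2 or LG4 with HG3 kept in ended that call (0.69 to 0.72). The annotation lists 6 processed copies of ASNS, and a lncRNA on its strand shares 2415 exon bases with it.

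PHGDH, the first enzyme of serine synthesis (chr1:120191034-120286841), fell in ZR-75-30. PHGDH values in ZR-75-30 were 247, 256, 277 and 243 at low glucose and 108, 125, 99 and 89.1 at high glucose. MDA-MB-175 cultures had PHGDH at 265, 237, 243 and 218 at low glucose and 286, 275, 260 and 255 at high glucose. HCC1500 cultures had PHGDH at 1090, 1211, 1117 and 1168 at low glucose and 923, 874, 1971 and 901 at high glucose. In ZR-75-30 every high glucose culture lay below every low glucose culture, in MDA-MB-175 the conditions overlapped, and in HCC1500 HG3 alone lay above the low glucose cultures while the other 3 lay below them. The change was -1.28 ± 0.09, adjusted p = 1.3e-09 in ZR-75-30, the largest fall of the 34 genes tested there, and 0.16 ± 0.07, adjusted p = 0.087 in MDA-MB-175. In HCC1500 it was -0.07 ± 0.25, adjusted p = 0.883, and -0.35 ± 0.04, adjusted p = 2.0e-07 without HG3.

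PSPH, the phosphatase that completes serine synthesis (chr7:56078744-56119297), went the same way. PSPH values in ZR-75-30 were 74.8, 63.1, 70.6 and 75.6 at low glucose and 43.2, 37.1, 41.2 and 30.8 at high glucose. MDA-MB-175 cultures had PSPH at 93.5, 103, 98.5 and 105 at low glucose and 129, 100.5, 121 and 121 at high glucose. HCC1500 cultures had PSPH at 306, 303, 312 and 259.7 at low glucose and 227, 247, 311 and 247 at high glucose. Only in ZR-75-30 did the conditions not overlap when all cultures were kept. PSPH fell in ZR-75-30 (-0.89 ± 0.13, adjusted p = 1.8e-05), was 0.23 ± 0.09, adjusted p = 0.0677 in MDA-MB-175, and fell in HCC1500 without HG3 (-0.29 ± 0.06, adjusted p = 5.1e-04; -0.20 ± 0.12, adjusted p = 0.276 with it). PSAT1, the aminotransferase between PHGDH and PSPH, was expressed at 432 ± 34.9 in MDA-MB-175 at low and 456 ± 21.1 (SD, n = 4) at high glucose (0.08 ± 0.06, adjusted p = 0.379). In ZR-75-30 PSAT1 was at 0 in 7 of 8 cultures and at a single read in LG1, so it was not tested. Its HCC1500 values were 9.2 to 11.6 at low and 12.6 to 18.9 at high glucose (0.51 ± 0.18, adjusted p = 0.0765, and 0.58 ± 0.21, adjusted p = 0.0229 without HG3).

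CBS, which condenses serine with homocysteine (chr21:44473301-44497053), was another gene with opposite calls. CBS values in MDA-MB-175 were 212, 198, 195 and 159 at low glucose and 345, 329, 321 and 338 at high glucose. ZR-75-30 cultures had CBS at 239, 247, 232 and 229 at low glucose and 181, 198, 199.7 and 179 at high glucose. HCC1500 cultures had CBS at 0.76, 0.318, 0 and 0.431 at low glucose and 0, 0, 1.49 and 0 at high glucose. The first 2 lines did not overlap between conditions and moved in opposite directions, and the HCC1500 cultures were at or under the floor of 3 reads, so no fold is given there. CBS rose in MDA-MB-175 (0.81 ± 0.08, adjusted p = 8.1e-07) and fell in ZR-75-30 (-0.32 ± 0.06, adjusted p = 2.6e-04). An entry on the same strand that the annotation types as an artifact shares 2495 exon bases with CBS. CTH, the next enzyme of transsulfuration, was called in no line, with changes of 0.16 ± 0.21, adjusted p = 0.624 in MDA-MB-175, -0.03 ± 0.10, adjusted p = 0.868 in ZR-75-30 and 0.37 ± 0.15, adjusted p = 0.117 in HCC1500 (0.33 ± 0.15, adjusted p = 0.0701 without HG3).

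PCK2, the mitochondrial enzyme that makes phosphoenolpyruvate (chr14:24563262-24579807), rose in MDA-MB-175. PCK2 values in MDA-MB-175 were 627, 541, 623 and 482 at low glucose and 740.1, 709, 701 and 686 at high glucose. ZR-75-30 cultures had PCK2 at 423, 415, 457 and 359 at low glucose and 356, 369.9, 358 and 314 at high glucose. HCC1500 cultures had PCK2 at 521, 598, 568 and 637 at low glucose and 395, 339.8, 830.2 and 363 at high glucose. The conditions were apart in MDA-MB-175 and overlapped in ZR-75-30, and HG3 was the single HCC1500 high glucose culture above the low glucose range. The change was 0.33 ± 0.07, adjusted p = 0.00246 in MDA-MB-175, -0.24 ± 0.07, adjusted p = 0.00727 in ZR-75-30 and -0.37 ± 0.26, adjusted p = 0.368 in HCC1500. Without HG3 the HCC1500 change was -0.66 ± 0.06, adjusted p = 2.5e-08, with no overlap. A difference between lines was not detected with HG3 (adjusted p = 0.0786) and was without it (adjusted p = 1.1e-06).

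The mitochondrial folate enzymes moved less, apart from ALDH1L2. SHMT2, which splits serine into glycine and a one-carbon unit, rose in MDA-MB-175 (0.26 ± 0.06, adjusted p = 0.00254) and ZR-75-30 (0.21 ± 0.04, adjusted p = 4.4e-04), and in HCC1500 it was 0.08 ± 0.19, adjusted p = 0.817 with HG3 and -0.13 ± 0.04, adjusted p = 0.00345 without it. MTHFD2 (chr2:74413299-74444692), the dehydrogenase after SHMT2, had values of 797, 838, 822 and 820.5 at low glucose and 749, 756, 751 and 773 at high glucose in MDA-MB-175. These did not overlap, and the change was -0.11 ± 0.04, adjusted p = 0.045. In ZR-75-30 MTHFD2 was 1492 to 1591 at low and 1513 to 1634 at high glucose (0.01 ± 0.04, adjusted p = 0.909), and in HCC1500 1453 to 1543 and 1487 to 1755 (0.09 ± 0.08, adjusted p = 0.442, and 0.05 ± 0.03, adjusted p = 0.208 without HG3), both overlapping. The MDA-MB-175 call ended with edgeR, DESeq2, median-of-ratios scaling or the replicate block (-0.09 to -0.11), and when LG2, LG3 or any high glucose culture was left out (-0.10 to -0.12).

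ALDH1L2 (chr12:105413562-105501421) oxidizes formyl-tetrahydrofolate in mitochondria. ALDH1L2 values in ZR-75-30 were 0, 1.14, 0 and 0 at low glucose and 5.21, 6.08, 5.53 and 2.74 at high glucose. MDA-MB-175 cultures had ALDH1L2 at 3.21, 5.36, 3.42 and 7.12 at low glucose and 3.74, 5.11, 6.25 and 6.83 at high glucose. HCC1500 cultures had ALDH1L2 at 85.1, 75.6, 77.8 and 73.6 at low glucose and 70.2, 71.6, 29.7 and 72.5 at high glucose. In ZR-75-30 all low glucose cultures were under the floor of 3 reads and all high glucose cultures above it. The fitted ZR-75-30 rise of 2.24 ± 0.39, adjusted p = 1.2e-04 depends on the pseudocount at this level. In MDA-MB-175 the change was 0.19 ± 0.29, adjusted p = 0.684 and in HCC1500 -0.43 ± 0.28, adjusted p = 0.313 (-0.12 ± 0.09, adjusted p = 0.246 without HG3).

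**Figure D4:**
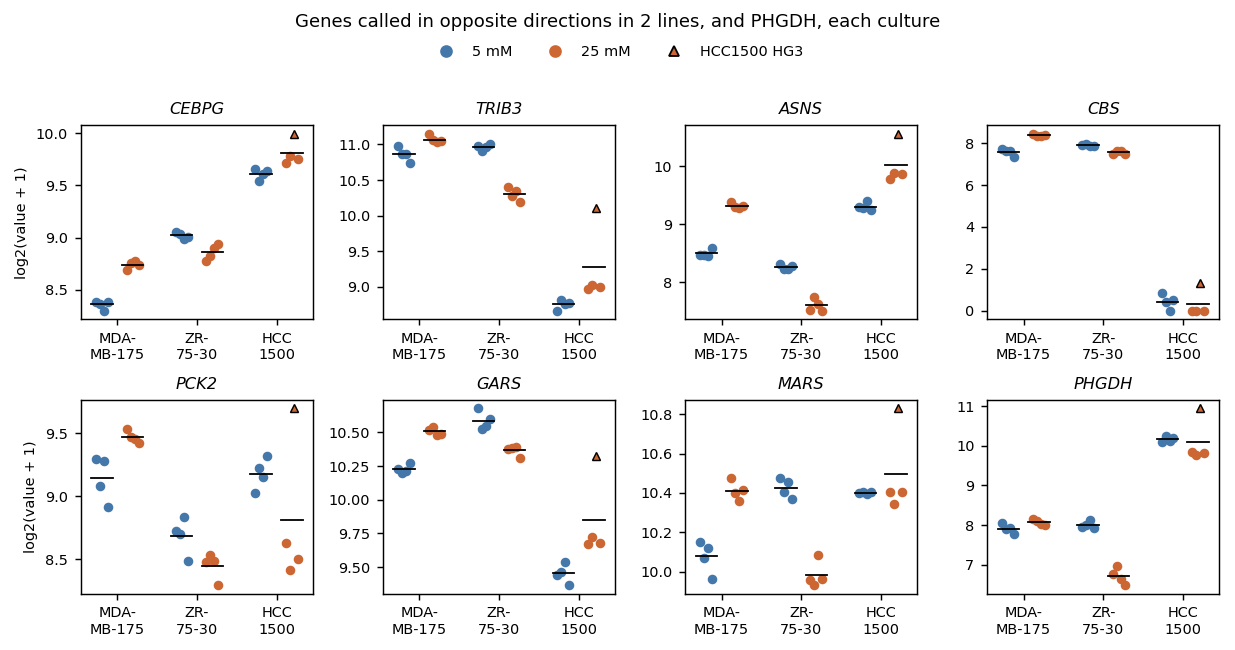
Log2(value + 1) of each culture (vertical axis) for the 7 genes higher in MDA-MB-175 and lower in ZR-75-30, and for PHGDH, by line and condition; blue is 5 mM, orange 25 mM, bars are group means, and the outlined triangle is HCC1500 HG3. High glucose cultures lie above low glucose in MDA-MB-175 and below it in ZR-75-30, PCK2 overlapping in ZR-75-30 and PHGDH overlapping in MDA-MB-175.

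The amino acid transporters gave the largest rises in HCC1500. SLC38A2, an importer of small neutral amino acids (chr12:46751971-46766556), came first. SLC38A2 values in MDA-MB-175 were 962, 925, 928 and 998 at low glucose and 2051, 2242, 2237 and 2166 at high glucose. ZR-75-30 cultures had SLC38A2 at 2285, 2249, 2307 and 2300 at low glucose and 2820, 2666, 2733 and 2676 at high glucose. HCC1500 cultures had SLC38A2 at 4736, 4628, 4766 and 4666 at low glucose and 16847, 17097, 11803 and 17187 at high glucose. No conditions overlapped, and HG3 was the lowest of its group. The rise was 1.19 ± 0.04, adjusted p = 1.2e-11 in MDA-MB-175, 0.25 ± 0.03, adjusted p = 5.4e-06 in ZR-75-30 and 1.73 ± 0.13, adjusted p = 1.0e-04 in HCC1500, a 3.31-fold rise (3.63-fold, 1.86 ± 0.02, adjusted p = 5.2e-20, without HG3).

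SLC3A2, the heavy chain that several exchangers need at the cell surface (chr11:62623476-62656352), rose in every line. SLC3A2 values in MDA-MB-175 were 1034, 969, 981 and 849 at low glucose and 1437, 1372, 1364 and 1330 at high glucose. ZR-75-30 cultures had SLC3A2 at 957, 966, 1029 and 925 at low glucose and 2076, 1954, 1921 and 1756 at high glucose. HCC1500 cultures had SLC3A2 at 1257, 1302, 1341 and 1308 at low glucose and 3145, 3138, 6736 and 3110 at high glucose. The conditions did not overlap in any line. The rise was 0.52 ± 0.05, adjusted p = 2.3e-06 in MDA-MB-175, 0.99 ± 0.05, adjusted p = 1.2e-11 in ZR-75-30 and 1.54 ± 0.24, adjusted p = 0.00272 in HCC1500 (1.27 ± 0.03, adjusted p = 1.5e-16 without HG3), and it differed between lines (adjusted p = 0.00407).

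SLC7A5, the light chain that pairs with SLC3A2 to import leucine (chr16:87863629-87903113), did not accompany it to the same extent in ZR-75-30. SLC7A5 values in MDA-MB-175 were 1165, 1158, 1238 and 963 at low glucose and 2262, 2232, 2231 and 2256 at high glucose. ZR-75-30 cultures had SLC7A5 at 233, 219, 239 and 229.8 at low glucose and 260.4, 241, 278 and 239 at high glucose. HCC1500 cultures had SLC7A5 at 1655, 1709, 1617 and 1716 at low glucose and 3276, 3263, 3869 and 3292 at high glucose. The conditions were apart in each line, by the least in ZR-75-30. The change was 0.99 ± 0.06, adjusted p = 5.4e-09 in MDA-MB-175, 0.14 ± 0.06, adjusted p = 0.0638 in ZR-75-30 and 1.03 ± 0.08, adjusted p = 1.2e-04 in HCC1500 (0.97 ± 0.03, adjusted p = 3.8e-15 without HG3). In ZR-75-30 the call was made with edgeR, median-of-ratios scaling (0.15 with each) and the replicate block (0.14).

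SLC1A4, an exchanger of alanine, serine and cysteine (chr2:65215611-65250999), was the gene lower in all lines. SLC1A4 values in MDA-MB-175 were 541, 502, 515 and 483 at low glucose and 487, 452, 449 and 442 at high glucose. ZR-75-30 cultures had SLC1A4 at 1195, 1233, 1268 and 1215 at low glucose and 1011, 880.3, 961 and 932 at high glucose. HCC1500 cultures had SLC1A4 at 1047, 1030, 1017 and 995 at low glucose and 639, 622, 697 and 618 at high glucose. The conditions overlapped in MDA-MB-175 and not in the other lines. SLC1A4 fell in ZR-75-30 (-0.38 ± 0.04, adjusted p = 8.8e-07) and HCC1500 (-0.67 ± 0.07, adjusted p = 4.7e-04, and -0.71 ± 0.03, adjusted p = 2.5e-12 without HG3). The MDA-MB-175 fall (-0.16 ± 0.05, adjusted p = 0.0303) lost its call with edgeR (-0.13) and DESeq2 (-0.14), so with these tools no gene was lower in all 3 lines. It also lost it when LG1, LG2, LG3, HG2, HG3 or HG4 of MDA-MB-175 was left out (-0.13 to -0.17).

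The remaining transporters were SLC1A5, the glutamine exchanger, and SLC7A1, the importer of arginine and lysine. Both rose in MDA-MB-175 (0.40 ± 0.05, adjusted p = 5.4e-05 for SLC1A5 and 0.43 ± 0.04, adjusted p = 1.8e-06 for SLC7A1). In ZR-75-30 the changes were 0.03 ± 0.04, adjusted p = 0.604 and -0.10 ± 0.05, adjusted p = 0.102. Without HG3 both rose in HCC1500 (0.11 ± 0.03, adjusted p = 0.00752 and 0.22 ± 0.04, adjusted p = 9.9e-05), where with HG3 they were 0.26 ± 0.14, adjusted p = 0.251 and 0.07 ± 0.14, adjusted p = 0.792. By count, 5 of 6 transporters were higher in MDA-MB-175, 2 of 6 in ZR-75-30 and 3 of 6 in HCC1500 (5 without HG3), with medians of 0.48, 0.09 and 0.64. The shares of all genes called higher were 11.9% for MDA-MB-175, 23.4% for ZR-75-30 and 7.46% for HCC1500 (20.9% without HG3).

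The tRNA synthetases, which charge tRNAs with their amino acids, changed by smaller amounts. GARS, for glycine (chr7:30620149-30673649), had opposite calls. GARS values in MDA-MB-175 were 1199, 1173, 1184 and 1235 at low glucose and 1464, 1490, 1430 and 1436 at high glucose. ZR-75-30 cultures had GARS at 1638, 1470, 1496 and 1550 at low glucose and 1326, 1334, 1344 and 1271 at high glucose. HCC1500 cultures had GARS at 695, 706, 743 and 659.7 at low glucose and 814, 845, 1279 and 816 at high glucose. No conditions overlapped, and ZR-75-30 was the line with high glucose lower. The change was 0.28 ± 0.04, adjusted p = 4.0e-05 in MDA-MB-175, -0.22 ± 0.04, adjusted p = 1.6e-04 in ZR-75-30 and 0.39 ± 0.15, adjusted p = 0.0976 in HCC1500 (0.24 ± 0.04, adjusted p = 4.1e-05 without HG3).

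MARS, for methionine (chr12:57869228-57911352), also moved in opposite directions. MARS values in MDA-MB-175 were 1138, 1076, 1114 and 998 at low glucose and 1421, 1350, 1315 and 1363 at high glucose. ZR-75-30 cultures had MARS at 1422, 1356, 1405 and 1323 at low glucose and 993, 978, 1086 and 998 at high glucose. HCC1500 cultures had MARS at 1351, 1356, 1346 and 1357 at low glucose and 1355, 1300, 1818 and 1353 at high glucose. The first 2 lines showed no overlap, and in HCC1500 the conditions overlapped. The change was 0.33 ± 0.05, adjusted p = 5.3e-05 in MDA-MB-175, -0.44 ± 0.04, adjusted p = 7.0e-08 in ZR-75-30 and 0.09 ± 0.11, adjusted p = 0.615 in HCC1500 (-0.02 ± 0.03, adjusted p = 0.617 without HG3), and it differed between lines (adjusted p = 2.3e-05).

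Of the other synthetases, WARS (tryptophan) and EPRS (glutamate and proline) fell in ZR-75-30 (-0.52 ± 0.05, adjusted p = 4.0e-08 and -0.38 ± 0.04, adjusted p = 9.7e-08). In MDA-MB-175 WARS was 0.07 ± 0.04, adjusted p = 0.272 and EPRS 0.04 ± 0.04, adjusted p = 0.485. AARS (alanine) and SARS (serine) rose in MDA-MB-175 (0.31 ± 0.04, adjusted p = 3.5e-05 and 0.20 ± 0.05, adjusted p = 0.0103) and in ZR-75-30 (0.12 ± 0.04, adjusted p = 0.0174 and 0.18 ± 0.05, adjusted p = 0.00357), where the AARS call ended with CPM scaling (0.08) and without LG1, LG4 or HG1 (0.10 to 0.11). NARS (asparagine) was called in no line with all cultures (0.11 ± 0.04, adjusted p = 0.0664 in MDA-MB-175 and 0.05 ± 0.05, adjusted p = 0.436 in ZR-75-30). In HCC1500 none of the 7 was called with all cultures. Without HG3 5 of the 7 rose, by at most 0.27 (SARS), and WARS fell (-0.25 ± 0.04, adjusted p = 4.0e-05, against -0.15 ± 0.11, adjusted p = 0.384 with it). Of all genes, 20.9% were called higher and 37.7% lower in HCC1500 without HG3.

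Levels at low glucose also differed between the lines. The level differed for 24 of 35 genes between MDA-MB-175 and ZR-75-30 (63.8% of all genes), for 32 between MDA-MB-175 and HCC1500 (72.6%) and for 31 between ZR-75-30 and HCC1500 (73.0%). The count of 24 lay near the share of all genes. HG3 belongs to none of these low glucose groups but enters the shared spread of the fit. Without HG3 the counts were 30, 33 and 33, with 13066, 14415 and 14313 of 18127 genes called. HCC1500 was higher than MDA-MB-175 for 23 of the 35 and lower for 9 (37.9% and 34.7% of all genes), and higher than ZR-75-30 for 18 and lower for 13 (44.0% and 29.0% of all genes). The counts against ZR-75-30 lay near these shares. MDA-MB-175 and ZR-75-30 were each the higher for 12 genes (39.5% of all genes were higher in MDA-MB-175 and 24.3% in ZR-75-30). The median difference of all genes moved with the scaling, from -0.23 as deposited to -0.11 with median-of-ratios and -0.36 with CPM for ZR-75-30 minus HCC1500, and from 0.18 to 0.11 and 0.25 for MDA-MB-175 minus ZR-75-30, so small differences between lines are not read here. With CPM 8641 genes were higher and 3251 lower in MDA-MB-175 than in ZR-75-30 (7159 and 4408 as deposited), and 3955 higher and 9704 lower in ZR-75-30 than in HCC1500 (5269 and 7976 as deposited).

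Several differences between lines were far larger than that shift. PSAT1 had a low glucose value of 432 ± 34.9 (SD, n = 4) in MDA-MB-175 and 10.2 ± 1.02 in HCC1500 (log2 difference 5.27 ± 0.15 (SE), adjusted p = 4.8e-19), with ZR-75-30 at 1 read in 1 culture and 0 in the others. CBS was 237 ± 7.99 in ZR-75-30 and 191 ± 22.3 in MDA-MB-175, and at or under the floor in HCC1500. The CBS difference between MDA-MB-175 and ZR-75-30 did not pass the test with all cultures (log2 difference -0.32 ± 0.21 (SE), adjusted p = 0.204) and passed it without HG3. PHGDH and PSPH were highest in HCC1500, with PHGDH at 1147 ± 53.7 against 256 ± 15.2 in ZR-75-30 (log2 difference -2.16 ± 0.17 (SE), adjusted p = 7.8e-11, ZR-75-30 minus HCC1500) and 241 ± 19.4 in MDA-MB-175.

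Among the stress regulators, NUPR1 was 47.6 ± 11.4 in MDA-MB-175, 1003 ± 79.5 in HCC1500 and 1591 ± 56.8 in ZR-75-30 (log2 difference -5.06 ± 0.22 (SE), adjusted p = 2.9e-15, MDA-MB-175 minus ZR-75-30). STC2 was 783 ± 32.5 in HCC1500, 50.4 ± 6.87 in MDA-MB-175 and 39 ± 5.47 in ZR-75-30 (log2 difference -4.30 ± 0.12 (SE), adjusted p = 2.7e-19, ZR-75-30 minus HCC1500). TRIB3 was lowest in HCC1500, at 431 ± 18.1, against 1863 ± 128 in MDA-MB-175 and 1995 ± 54.2 in ZR-75-30, a difference between these lines that did not pass the test (log2 difference -0.10 ± 0.16 (SE), adjusted p = 0.6). ATF4 mRNA was also lowest in HCC1500 (log2 difference 1.19 ± 0.14 (SE), adjusted p = 1.0e-07, ZR-75-30 minus HCC1500, and 0.91 ± 0.14, adjusted p = 5.5e-06, MDA-MB-175 minus HCC1500).

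For the transporters, SLC7A5 was 1675 ± 46.9 in HCC1500, 1131 ± 117 in MDA-MB-175 and 230 ± 8.26 in ZR-75-30 (log2 difference -2.86 ± 0.07 (SE), adjusted p = 2.7e-20, ZR-75-30 minus HCC1500). SLC38A2 was highest in HCC1500 (log2 difference -2.30 ± 0.08 (SE), adjusted p = 3.5e-17, MDA-MB-175 minus HCC1500, and -1.04 ± 0.08, adjusted p = 7.3e-11, ZR-75-30 minus HCC1500). SLC3A2 differed little between MDA-MB-175 and ZR-75-30 (log2 difference -0.02 ± 0.16 (SE), adjusted p = 0.936). ZR-75-30, with the lowest SLC7A5, is also the line where SLC7A5 was not called with glucose. Per kb of canonical transcript, ATF4 had the highest level of the 35 genes at low glucose in MDA-MB-175 (1840 per kb), ZR-75-30 (2230 per kb) and HCC1500 (981 per kb), where SLC38A2 stood at 980 per kb, too close to order the pair. Which transcript of a gene was expressed was not determined, so this order rests on the annotated lengths.

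**Figure D5:**
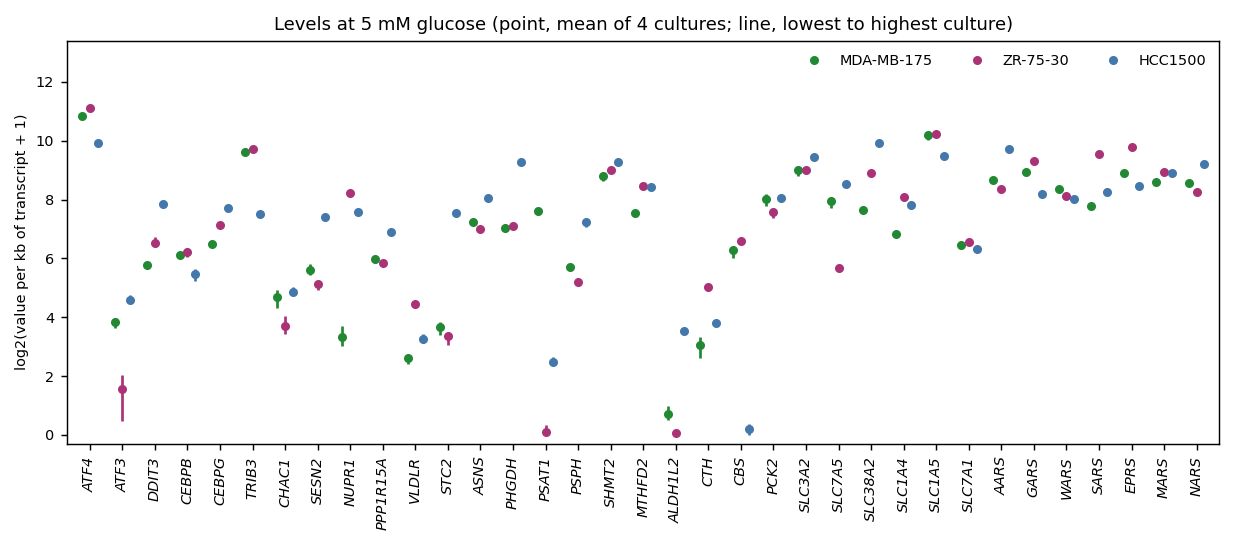
Level at 5 mM glucose, as log2(value per kb of canonical transcript + 1), of each of the 35 genes in the 3 lines; points are means of 4 cultures and lines run from the lowest to the highest culture. PSAT1 and ALDH1L2 are near 0 in ZR-75-30 and CBS is near 0 in HCC1500, while STC2, PHGDH and SESN2 are highest in HCC1500.

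Genes of the same pathways outside the 35 were taken from lists by role. Their counts stand beside the shares of all genes called higher and lower, which were 11.9% and 13.7% for MDA-MB-175, 23.4% and 22.7% for ZR-75-30, and 7.46% and 13.0% for HCC1500 (20.9% and 37.7% without HG3). Of 21 other ATF4-linked targets in the table, 12 of 21 tested were higher and 3 lower in MDA-MB-175 (median 0.29), and 5 higher and 11 lower of 20 in ZR-75-30 (median -0.21). In HCC1500 4 were higher and 2 lower of 20, and 9 higher and 5 lower of 19 without HG3. SLC7A11, the cystine importer, rose in MDA-MB-175 from a mean of 91.8 to 262 (1.5 ± 0.09, adjusted p = 7.7e-09), fell in ZR-75-30 from 559 to 286 (-0.97 ± 0.05, adjusted p = 5.6e-11), and was 0.17 ± 0.25, adjusted p = 0.684 in HCC1500 (0.46 ± 0.05, adjusted p = 3.1e-07 without HG3). GDF15, a stress-induced secreted factor, rose in all 3 lines (0.98 ± 0.08, adjusted p = 1.8e-07 in MDA-MB-175, 1.44 ± 0.06, adjusted p = 1.0e-12 in ZR-75-30 and 2.41 ± 0.28, adjusted p = 6.8e-04 in HCC1500, or 2.08 ± 0.04, adjusted p = 6.3e-17 without HG3). KLHL24 rose in MDA-MB-175 (0.84 ± 0.08, adjusted p = 1.8e-06) and ZR-75-30 (1.37 ± 0.08, adjusted p = 2.8e-10), and was 0.54 ± 0.24, adjusted p = 0.162 in HCC1500, where it rose without HG3 (0.81 ± 0.05, adjusted p = 6.0e-11). FAM129A fell in MDA-MB-175 (-0.58 ± 0.04, adjusted p = 4.4e-08), ZR-75-30 (-0.59 ± 0.05, adjusted p = 1.5e-08) and HCC1500 (-0.82 ± 0.20, adjusted p = 0.0225, and -0.59 ± 0.03, adjusted p = 6.7e-11 without HG3). GADD45A, a stress and growth arrest gene, was 0.50 ± 0.19, adjusted p = 0.0733 in MDA-MB-175 and rose in ZR-75-30 (1.49 ± 0.12, adjusted p = 9.6e-09) and HCC1500 (0.91 ± 0.18, adjusted p = 0.00751, and 0.75 ± 0.10, adjusted p = 2.6e-06 without HG3).

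Of the 13 other cytosolic tRNA synthetases, 3 were higher and 2 lower in MDA-MB-175, 2 higher and 8 lower in ZR-75-30, and 1 higher and 1 lower in HCC1500 (4 higher and 8 lower without HG3). TARS, for threonine, rose in MDA-MB-175 (0.44 ± 0.05, adjusted p = 4.0e-06) and HCC1500 (0.32 ± 0.08, adjusted p = 0.0267, and 0.26 ± 0.03, adjusted p = 2.5e-07 without HG3) and fell in ZR-75-30 (-0.29 ± 0.04, adjusted p = 5.6e-06). IARS, for isoleucine, fell in ZR-75-30 (-0.69 ± 0.04, adjusted p = 3.0e-11), and was -0.07 ± 0.04, adjusted p = 0.285 in MDA-MB-175 and -0.23 ± 0.07, adjusted p = 0.0575 in HCC1500 (-0.19 ± 0.03, adjusted p = 2.1e-05 without HG3). The 17 mitochondrial synthetases gave no rise and 3 falls in MDA-MB-175, 1 rise and 4 falls in ZR-75-30, and 1 rise and 4 falls in HCC1500 (1 and 10 without HG3), with medians of -0.08, -0.01 and -0.26. The falls in MDA-MB-175 and ZR-75-30 lay near the share of all genes called lower.

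Upstream of ATF4, 15 genes for eIF2, eIF2B, the eIF2 kinases and their regulators gave 3 higher and 1 lower in MDA-MB-175, 5 higher and 3 lower in ZR-75-30, and 2 higher and 2 lower in HCC1500 (6 and 4 without HG3). EIF2AK4, the kinase GCN2 that senses uncharged tRNA, rose in ZR-75-30 (0.55 ± 0.05, adjusted p = 4.7e-08), and was 0.07 ± 0.05, adjusted p = 0.381 in MDA-MB-175 and -0.11 ± 0.12, adjusted p = 0.575 in HCC1500 (0.01 ± 0.04, adjusted p = 0.873 without HG3). PPP1R15B, the constitutive counterpart of PPP1R15A, rose in MDA-MB-175 (0.32 ± 0.04, adjusted p = 3.8e-05) and HCC1500 (0.74 ± 0.12, adjusted p = 0.00314, and 0.85 ± 0.03, adjusted p = 1.4e-13 without HG3), and was -0.03 ± 0.04, adjusted p = 0.584 in ZR-75-30. IMPACT, an inhibitor of GCN2, fell in the same 2 lines (-0.39 ± 0.07, adjusted p = 6.4e-04 in MDA-MB-175, and -0.54 ± 0.10, adjusted p = 0.00627 in HCC1500, or -0.46 ± 0.04, adjusted p = 4.7e-08 without HG3), and was 0.04 ± 0.10, adjusted p = 0.796 in ZR-75-30.

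The ATF6 and XBP1 branch of the unfolded protein response, 15 genes, gave 3 higher and 6 lower in MDA-MB-175, 5 higher and 6 lower in ZR-75-30, and 2 higher and 1 lower in HCC1500 (7 and 3 without HG3), with medians of -0.10, -0.06 and 0.32 (0.04 without HG3). DNAJB9, a chaperone of that branch, rose in MDA-MB-175 (0.54 ± 0.07, adjusted p = 3.3e-05), ZR-75-30 (0.43 ± 0.07, adjusted p = 1.0e-04) and HCC1500 (0.98 ± 0.10, adjusted p = 3.2e-04, and 0.90 ± 0.05, adjusted p = 5.7e-11 without HG3). HSPA5, the chaperone BiP, was 0.06 ± 0.04, adjusted p = 0.264 in MDA-MB-175 and rose in ZR-75-30 (0.22 ± 0.04, adjusted p = 1.9e-04) and HCC1500 (0.69 ± 0.15, adjusted p = 0.0123, and 0.53 ± 0.02, adjusted p = 2.5e-12 without HG3). XBP1 fell in MDA-MB-175 (-0.32 ± 0.04, adjusted p = 2.2e-05) and ZR-75-30 (-0.47 ± 0.04, adjusted p = 1.7e-08), and was -0.20 ± 0.15, adjusted p = 0.406 in HCC1500, where it fell without HG3 (-0.36 ± 0.02, adjusted p = 1.6e-10). EDEM1 rose in MDA-MB-175 (0.71 ± 0.06, adjusted p = 3.8e-07) and ZR-75-30 (0.46 ± 0.05, adjusted p = 3.1e-07), and was -0.10 ± 0.13, adjusted p = 0.654 in HCC1500 (0.04 ± 0.04, adjusted p = 0.42 without HG3).

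Other amino acid transporters (14 in the table) gave 6 higher and 2 lower of 13 in MDA-MB-175, 2 and 2 of 11 in ZR-75-30, and 2 and 1 of 11 in HCC1500 (6 and 1 without HG3). SLC43A1, a facilitator of neutral amino acids, rose in MDA-MB-175 from a mean of 1.3 to 5.68 (1.56 ± 0.32, adjusted p = 0.00157), near the floor at low glucose, and in ZR-75-30 from 12.8 to 31.6 (1.25 ± 0.22, adjusted p = 1.2e-04). In HCC1500 SLC43A1 was 0.62 ± 0.20, adjusted p = 0.0607, and 0.41 ± 0.08, adjusted p = 3.9e-04 without HG3. SLC6A14 rose in MDA-MB-175 from 26.8 to 65.8 (1.26 ± 0.13, adjusted p = 2.5e-06) and had means under 2 in the other lines. SLC7A2, an importer of cationic amino acids, rose in HCC1500 (0.75 ± 0.21, adjusted p = 0.0337, and 0.98 ± 0.03, adjusted p = 3.8e-15 without HG3). SLC7A8, another light chain of SLC3A2, rose in HCC1500 (0.93 ± 0.08, adjusted p = 1.7e-04, and 0.93 ± 0.06, adjusted p = 3.5e-10 without HG3) and fell in MDA-MB-175 (-0.15 ± 0.04, adjusted p = 0.0119) and ZR-75-30 (-0.38 ± 0.04, adjusted p = 3.2e-07). SLC43A2, also a facilitator of neutral amino acids, fell in MDA-MB-175 (-0.54 ± 0.10, adjusted p = 5.6e-04), ZR-75-30 (-0.83 ± 0.10, adjusted p = 2.5e-06) and HCC1500 (-0.66 ± 0.19, adjusted p = 0.0375, and -0.86 ± 0.07, adjusted p = 1.2e-08 without HG3). The other folate and methionine cycle genes (12) gave no rise in any line with all cultures and 6 falls in MDA-MB-175, 7 falls in ZR-75-30 and 4 falls in HCC1500 (9 falls and 1 rise without HG3). TYMS, which makes thymidylate, fell in MDA-MB-175 (-0.48 ± 0.05, adjusted p = 5.4e-06) and ZR-75-30 (-1.17 ± 0.06, adjusted p = 4.5e-11), and was -0.55 ± 0.18, adjusted p = 0.0571 in HCC1500, where it fell without HG3 (-0.74 ± 0.05, adjusted p = 1.2e-09).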

How the data were processed

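RNA from 24 cultures was sequenced by the authors on an Illumina HiSeq. The deposited table gives a signal value per gene and culture, listed for 18889 Ensembl gene IDs. The study's methods name TMM-normalized CPM from edgeR for its RNA-Seq, which these columns are not, since they sum to 5559394 to 7594840; the factor used is not given in the sources used here. Whole reads were recovered for 100.00% of values (tolerance 0.1 reads), each value being reads divided by 1 factor per sample. The submitters' processing notes name edgeR and hg38, whereas the study's methods describe Trimmomatic, TopHat, hg19 and Ensembl v70 genes; the conflict was not resolved. Gene coordinates are GRCh37, 1-based, from GENCODE, and those of the promoter windows are GRCh38.p14, from RefSeq.

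Each line was tested on its 8 cultures with limma 3.58.1 (R 4.3.3) on log2(value + 1), with a variance trend, keeping genes that reached a value of 0.5 in 4 or more cultures. Adjusted p is Benjamini-Hochberg over all genes tested. The log2(value + 1) scale understates changes of weakly expressed genes. A fit of all 24 cultures gave the tests between lines. Where no tool is named beside a p-value, it is limma's. The fit was checked on simulated counts with the same dispersion for every gene and no outlying library, so the check does not cover HG3. Alternatives were pseudocounts of 0.1 and 5, other filters, median-of-ratios and CPM scaling, edgeR 4.0.16 and DESeq2 1.42.0 on recovered reads, a replicate block and leaving out each culture. Genes named with values in every culture were ATF4, ATF3, DDIT3, TRIB3, CHAC1 and ASNS, the 3 largest called rises and falls per line, genes called alike or oppositely across lines, and the 3 smallest p-values for a difference between lines; up to 3 genes per other list with the largest called change were named. The 35 genes, the lists and the rules were chosen with earlier results of these data known. Groups come from the sample titles. FGF21, SLC7A3 and SLC3A1 were sought and not found in the table.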

Additional observations from a re-analysis of the deposited data

Results flagged for a closer look

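In 33 of the 210 groups of 4 cultures formed by the 35 genes, 1 culture lay apart from the other 3, its gap to the nearest of them exceeding 0.83 of the group's range (Dixon's criterion). By chance about 1 group in 20 would do so. HCC1500 HG3 was the culture in 24 of the 33, as the highest of its group in 19 and the lowest in 5, with a gap of 0.97 of the range for ATF4, 0.85 for ATF3, 0.97 for DDIT3, 0.91 for CEBPB, 0.96 for TRIB3, 0.97 for NUPR1, 0.92 for PPP1R15A, 0.83 for VLDLR, 0.88 for ASNS, 0.96 for PHGDH, 0.94 for SHMT2, 0.95 for ALDH1L2, 1.0 for CBS, 0.89 for PCK2, 0.99 for SLC3A2, 0.95 for SLC7A5, 0.94 for SLC38A2, 0.98 for SLC1A5, 0.85 for SLC7A1, 0.86 for AARS, 0.93 for GARS, 0.96 for SARS, 0.94 for EPRS and 0.90 for MARS.

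The other 9 belonged to the remaining lines, with a gap of 0.85 of the range for ATF3 in MDA-MB-175 HG4, 0.88 for DDIT3 in ZR-75-30 HG1, 0.92 for VLDLR in MDA-MB-175 LG3, 0.89 for ASNS in MDA-MB-175 LG4, 1.0 for PSAT1 in ZR-75-30 LG1, 1.0 for ALDH1L2 in ZR-75-30 LG2, 0.85 for WARS in MDA-MB-175 LG1, 0.91 for SARS in ZR-75-30 HG4 and 0.85 for NARS in ZR-75-30 LG4. For PSAT1 and ALDH1L2 in ZR-75-30, as for CBS in HCC1500, the culture apart was the single one of its group with any read.

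The glucose response differed between the lines in the fit of all 24 cultures for 22 genes. The adjusted p (limma F test) was 1.9e-04 for ATF3, 4.1e-05 for CEBPG, 7.5e-04 for TRIB3, 0.0485 for CHAC1, 0.00853 for NUPR1, 0.00241 for PPP1R15A, 0.00272 for VLDLR, 2.0e-07 for ASNS, 1.3e-04 for PHGDH, 0.0474 for PSAT1, 3.1e-05 for PSPH, 1.3e-04 for ALDH1L2, 0.0131 for CBS, 0.00407 for SLC3A2, 3.5e-07 for SLC7A5, 1.2e-08 for SLC38A2, 6.6e-05 for SLC1A4, 0.0103 for SLC7A1, 0.00229 for GARS, 4.0e-04 for WARS, 7.0e-05 for EPRS and 2.3e-05 for MARS. Of these, CEBPG, TRIB3, ASNS, CBS, GARS and MARS were higher in MDA-MB-175 and lower in ZR-75-30, and CHAC1 and PSAT1 lay closest to the threshold. PSAT1 in ZR-75-30 and CBS in HCC1500 were at or under the floor, so for these 2 genes 1 line could show no response. ALDH1L2 was under the floor in ZR-75-30 at low glucose, so the size of its response there is uncertain.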

How the results depend on the processing

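Of the counts of genes called, those for rises and falls in ZR-75-30, rises in MDA-MB-175, genes opposite between MDA-MB-175 and ZR-75-30 and levels at low glucose stayed within 1.5 times their value under every setting tried. The HCC1500 count of rises, 10, became 16 with median-of-ratios scaling, 16 with edgeR and 18 with DESeq2, and its count of falls, 1, became 2 with CPM scaling. Over all genes in HCC1500, median-of-ratios scaling gave 1726 higher and 1802 lower against 1221 and 2129, edgeR 1709 and 1867, and DESeq2 2323 and 2109. The MDA-MB-175 count of falls, 2, was 1 with median-of-ratios scaling and 1 with the replicate block, and 0 with edgeR and 0 with DESeq2, and the count lower in all 3 lines, 1, was 0 with edgeR and 0 with DESeq2. Leaving out 1 culture at a time gave 6 to 22 rises and 1 to 6 falls in HCC1500, 0 to 2 falls in MDA-MB-175, and 0 to 1 genes lower and 5 to 10 higher in all 3 lines; in HCC1500 the lowest counts of rises, 6, came without LG1, LG2 or LG4, and the highest, 22 rises and 6 falls, without HG3. Without HG3 the SHMT2 change in HCC1500 turned from 0.08 to -0.13, the single change of sign in which either value passed the test (-0.13 to 0.16 over the cultures left out). Over all genes in HCC1500 the rises numbered 759, 738 and 765 without LG1, LG2 and LG4, and 3390 without HG3, against 1221 with all cultures. Causes of these changes were not tested. Genes differing between lines numbered 20 to 30 when 1 culture was left out and 19 to 28 under the other settings. Over all genes that number was 5316, and 8809 without HG3.

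Same-numbered cultures of the 2 conditions did not deviate together (mean correlation across genes 0.05 for MDA-MB-175, 0.04 for ZR-75-30 and 0.02 for HCC1500), and 1, 1 and 2 of the 4 numbers correlated best with their own. With the replicate block the rises among the 35 genes numbered 24 (MDA-MB-175), 14 (ZR-75-30) and 9 (HCC1500), and all genes called in HCC1500 numbered 1964 against 3350 (9504 without HG3, and 2015 to 2104 without 1 of the low glucose cultures). Rises over all genes in these lines numbered 2073, 3835 and 687 with the block and 2030, 3700 and 1221 without it. Depth limits PSAT1 in ZR-75-30 and CBS in HCC1500, at or under 3 reads, and ALDH1L2 in ZR-75-30 at low glucose, under 3 reads.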
